A study of Mus musculus with 10 samples.

Results

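Genes that store and release triglyceride were examined in mouse heart muscle cells (cardiomyocytes) made to carry dnMKL1, against cells carrying GFP alone. MKL1 is a coactivator of the transcription factor SRF, and the dominant-negative version blocks its action. The 10 genes were taken by name from the 23337 genes of the authors' deposited table: the lipases Ces1d, Lpl, Pnpla2, Lipe and Mgll, the perilipins Plin2, Plin4 and Plin5, and the acyltransferases Dgat1 and Dgat2. Ces1d was picked for its strong fall in this same comparison, so its values are a description and were not tested. The other 9 were picked by function, with earlier results of these data known.

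All mice were wild type. On postnatal day 1 they received 500000000 vg of AAV9 per gram of body weight, either AAV9-cTNT-GFP (GFP group, 5 libraries) or AAV9-cTNT-dnMKL1-GFP (dnMKL1 group, 5 libraries), and cells were collected on postnatal day 14 by collagenase perfusion and cell sorting. The cTNT promoter, that of cardiac troponin T, is active in cardiomyocytes, and both groups carried a virus and GFP. The series' text calls the libraries biological replicates, and the labels name neither the sorting gate nor the number of animals behind a library. The table holds the authors' comparison and no values per library, so no value per library and no SD can be given, and replicate error enters through the deposited standard error (SE) of each log2 fold change.

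As background, heart muscle draws most of its energy from fatty acids. Lipoprotein lipase, made by the cardiomyocyte and carried to the capillary wall, releases them from circulating triglyceride. Inside the cell, fatty acids not burned at once are esterified, the last step being done by the DGAT enzymes, and stored in lipid droplets. Perilipins coat the droplets and regulate the access of lipases, and adipose triglyceride lipase (Pnpla2), hormone-sensitive lipase (Lipe) and monoglyceride lipase (Mgll) then remove the fatty acids step by step.

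The base means of the table, normalized counts averaged over all libraries, gave implied group means once combined with the fold change. Library totals estimated from the recovered size factors ran from 8802947 to 17123500 counts for GFP and from 8835151 to 17228537 for dnMKL1. Mkl1, whose reads include those of the vector, had a log2 fold change of 9.80 (SE 0.15) in the authors' deposited table, and positive values were therefore read as higher in dnMKL1 libraries. Cardiomyocyte markers were abundant, with Myh6 at a base mean of 594986 in the authors' deposited table. All 8 had negative log2 fold changes in the authors' deposited table, from -1.55 for Actc1 to -0.20 for Myl2. The adjusted p was under 0.05 for 5 of them, and their median was -0.54. All 8 had base means of 10000 or more. In that class 70.7% of 140 genes were lower with an adjusted p under 0.05, and the median was -0.60. With both groups scaled to the same implied total, Mb, Myl2 and Pln had 0.032, 0.087 and 0.083. The summed implied mean of the 8 markers went from 1533414 to 872396 normalized counts, of which Myh6 had 768373 and 421599. Endothelial markers summed to 4469 and 4513 normalized counts in the GFP and dnMKL1 groups. By the authors' Wald test, 0 of the 12 were called and 0 had an unadjusted p under 0.05. Fibroblast markers summed to 3539 and 4913, with 3 of 8 higher. Of 8 mural cell markers, Cspg4 was 4.03-fold higher, Myh11 was higher, Acta2 was 2.09-fold lower and 5 were not called. The 8 summed to 18208 and 15872, of which Acta2 had 10454 and 4999 and Abcc9 6332 and 7773. Those sums therefore follow mainly Acta2 and Abcc9, while the others had base means from 124 (Kcnj8) to 1260 (Cspg4). Whether the reads of Acta2 and Abcc9 came from mural cells was not tested, so the sums are not read as a measure of mural cells. Of 7 macrophage markers, which summed to 146 and 125, Cd68 was higher and 6 were not called. Those 6 had negative log2 fold changes, from -1.35 for Cd163 to -0.0065 for Csf1r, and the median of the 7 was -0.40. Among 12 adipocyte markers, Adipoq, Retn and Lep were listed at 0, and Cidea, described with the droplet proteins, was the one with an adjusted p. The other 8 had base means of at most 0.777: Plin1, Cidec and Cfd had 1, 2 and 3 reads in all, in 1 dnMKL1 library, Ucp1 had 1 read in another, and Adig had 6 reads, 1 in a GFP library and 5 in dnMKL1 libraries. In bulk samples, fewer cells of a type, less RNA per cell and a change of the marker genes alone cannot be told apart. The part of these marker shifts in the results was not tested.

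Most of the 10 genes were lower in dnMKL1 cardiomyocytes. By the authors' adjusted p under 0.05, 7 were lower, 0 higher and 3 not called, or 6, 0 and 3 without Ces1d, and 7 had an unadjusted p under 0.05. No other tool was run. Over all 14056 genes with an adjusted p, 17.4% were called lower and 16.6% higher. Since the choice of Ces1d used this comparison, nothing is read from the difference between these shares. The median log2 fold change was -0.64 over the 10 genes and -0.57 without Ces1d, against 0.021 over all genes. Scaling both groups to the same implied total adds 0.29 to every log2 fold change. Plin5, Dgat2, Pnpla2 and Lpl then stayed lower and called, Plin4 stayed lower and was no longer called, Lipe, Mgll and Dgat1 turned slightly positive, and Plin2 was called higher. Ces1d, not tested, had -2.91. That scaling called 6.60% of all genes lower and 40.4% higher.

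Abundance bears on this reading, because abundant genes were lower as a class. From 1000 to 10000 normalized counts, 40.1% of 1986 genes were called lower, with a median log2 fold change of -0.13. Plin4, Plin5, Pnpla2 and Dgat2 lay below that median and were called lower, and Plin2 lay above it. At 10000 or more, 70.7% of 140 genes were called lower with a median of -0.60, close to the value of Lpl. From 100 to 1000, where Ces1d, Lipe, Mgll and Dgat1 lie, the share was 19.3% and the median 0.0076.

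**Figure D1:**
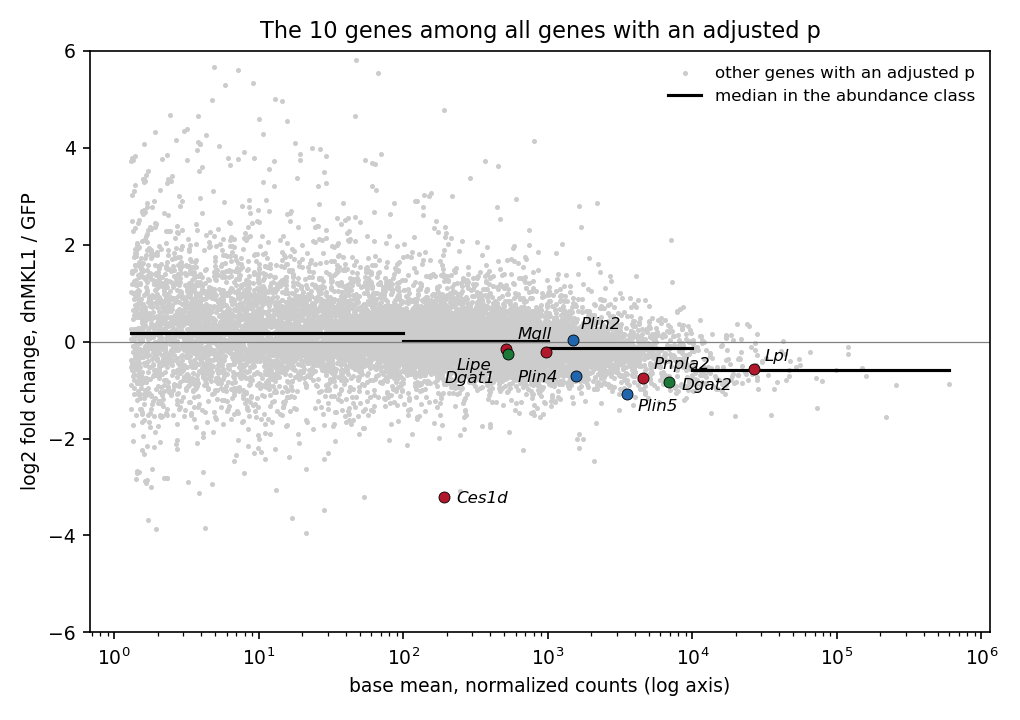
Log2 fold change (dnMKL1 over GFP, vertical axis) against base mean in normalized counts (log axis) for genes with an adjusted p; Mkl1 lies outside the axis. Red points are lipases, blue perilipins and green acyltransferases; black lines are the class medians, from 0.17 under 100 counts to -0.60 at 10000 or more. Ces1d lies at -3.20, Lpl sits on its class median and Plin2 is the one gene of the 10 above 0.

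Levels can be set between genes only per length, here as the implied group mean per kilobase of exon in the GENCODE annotation. In the GFP group the order ran from Lpl at 3032 normalized counts per kilobase through Dgat2 (2845), Plin5 (2285), Pnpla2 (1878), Plin2 (416), Plin4 (334), Mgll (206), Dgat1 (188) and Ces1d (145) to Lipe (92.1). The 4 leading genes thus stood well above the other 6. In the dnMKL1 group the order changed at 2 places: Pnpla2 (1124) passed Plin5 (1080), and Ces1d (15.8) came after Lipe (82.8). Among 15636 genes with a length, Lpl ranked at 163 in GFP cells and 188 in dnMKL1 cells, Plin5 went from 215 to 374, and Ces1d went from 3074 to 8492. With the longest transcript as the length, the first 6 places of the GFP order were the same, while Mgll and Dgat1 changed places there; this length was chosen after seeing the data. No spread between libraries can be set on these levels, so neighbours such as Mgll, Dgat1 and Ces1d cannot be ranked beyond their error.

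**Figure D2:**
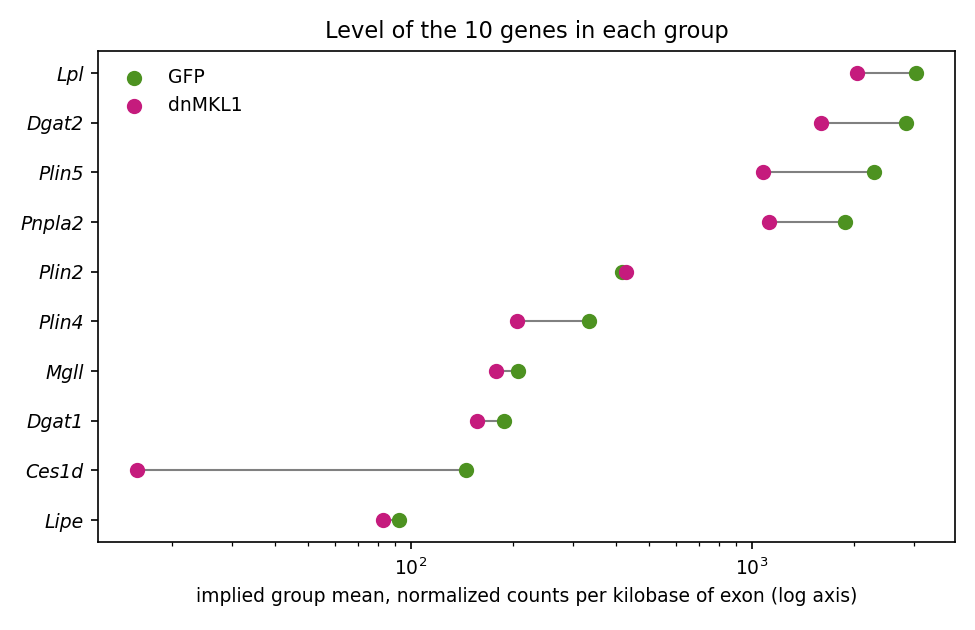
Implied group mean per kilobase of exon (log axis) of each gene in the GFP and dnMKL1 groups, ordered by the GFP level; each point is 1 group and has no error bar. Lpl, Dgat2, Plin5 and Pnpla2 lie above 1000 normalized counts per kilobase in both groups, and Ces1d shows the longest distance between the groups, from 145 to 15.8.

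Among the lipases, the transcript of the enzyme that acts outside the cell was less abundant. Protein levels and enzyme activity were not measured here for any of the genes. Lpl lies on chromosome 8 (GRCm38, 68880491 to 68907448, plus strand, 10 exons in its longest transcript). Its implied mean was 31774 normalized counts in GFP cells against 21381 in dnMKL1 cells, and per kilobase it was the most abundant of the 10 genes in both groups. In the authors' deposited table the log2 fold change was -0.57 (SE 0.12, adjusted p = 2.3e-05), a decrease of 32.7% with a 95% interval of 20.6% to 42.9%.

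The genes that handle lipoprotein lipase moved less than Lpl or were measured with less precision. Lmf1, which the enzyme needs to fold, had a log2 fold change of -0.20 (SE 0.15, adjusted p = 0.313) in the authors' deposited table. Gpihbp1, the endothelial protein that carries the enzyme across the capillary wall, had one of -0.15 (SE 0.49, adjusted p = 0.865), and Angptl4, an inhibitor of the enzyme, one of -0.21 (SE 0.49, adjusted p = 0.799), both in the authors' deposited table. The SEs of Gpihbp1 and Angptl4 were several times that of Lpl, so changes as large as that of Lpl lie within their intervals. Lpl minus Lmf1 was -0.37 on the log2 scale, with a sum of both SEs of 0.27. Lmf1 and Gpihbp1, at base means of 468 and 181, lie in the abundance class with a median of 0.0076. Lpl lies in the class with a median of -0.60. The part of abundance in these contrasts was not tested.

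Cd36, the fatty acid carrier of the cell surface, had implied means of 28600 and 25479 normalized counts and a log2 fold change of -0.17 (SE 0.079, adjusted p = 0.0917) in the authors' deposited table. Lpl minus Cd36 was -0.40 on the log2 scale. The SE of such a difference is at most the sum of both SEs whatever their correlation across libraries, here 0.20. Vldlr, a lipoprotein receptor, fell by 0.35 on the log2 scale (SE 0.11, adjusted p = 0.0068) in the authors' deposited table, and under total-count scaling it had -0.057 and was not called. Of the 14 tested genes of this list of partners and inhibitors, 2 were called lower, Vldlr among them, 0 were called higher and 6 had an unadjusted p under 0.05 by the authors' Wald test. The list's median was -0.16, and under total-count scaling it was 0.13 with 3 higher and 1 lower. Beside these counts, 17.4% of all genes were called lower and 16.6% higher, or 6.60% and 40.4% under total-count scaling.

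Ces1d, carboxylesterase 1d, is a triglyceride hydrolase of the endoplasmic reticulum best known from liver and adipose tissue. It lies on chromosome 8 (GRCm38, 93166068 to 93197838, minus strand, 14 exons in its longest transcript). Its implied mean was 344 normalized counts in GFP cells against 37.4 in dnMKL1 cells. The authors' deposited table gave a log2 value of -3.20 (SE 0.30), a 9.20-fold lower level with a 95% interval of 6.09 to 13.9. On the log2 scale the interval ran from -3.80 to -2.61.

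Ces1d belongs to a tandem family of similar genes, which matters for how its reads were assigned. Its longest transcript is 82.2% identical to that of Ces1e over 1654 aligned bases and shares 0 words of 50 bases with it, and 1.28% of its 1955 such words occur in a transcript of any other gene. Most of the Ces1 genes were near 0: Ces1a, Ces1c, Ces1f and Ces1g were listed at 0 and Ces1b had 3 reads in all. Ces1e was the one close relative with more reads, at implied means of 17.2 and 3.52 normalized counts. It was lower as well, with a log2 fold change of -2.29 (SE 0.47, adjusted p = 9.9e-06) in the authors' deposited table. Ces2g and Ces5a of the wider family rose. Their log2 values in the authors' deposited table were 2.30 (SE 0.33, adjusted p = 1.0e-10) for Ces2g and 2.80 (SE 1.13, adjusted p = 0.0407) for Ces5a, the latter at a base mean of 2.84 and an implied GFP mean under 3 counts, where the size of a fold rests on few reads. With p-values adjusted over all genes, Ces5a had an adjusted p of 0.0503 and was not called. Ces3b, another low gene, had 1.30 (SE 0.63, adjusted p = 0.0982) in the authors' deposited table. These were 3 called genes of 5 tested, with a median of 1.30, where 17.4% of all genes were called lower and 16.6% higher.

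Pnpla2 encodes adipose triglyceride lipase, which takes the first fatty acid from stored triglyceride. The gene lies on chromosome 7 (GRCm38, 141455198 to 141460743, plus strand, 9 exons). Its implied mean was 5673 normalized counts in GFP cells against 3394 in dnMKL1 cells. In the authors' deposited table it fell by 0.74 on the log2 scale (SE 0.12, adjusted p = 3.0e-08), a decrease of 40.2% with a 95% interval of 29.3% to 49.4%.

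The coactivator and the inhibitors of Pnpla2 were not called. Abhd5, the coactivator, had a log2 fold change of -0.096 (SE 0.077, adjusted p = 0.372) in the authors' deposited table. Pnpla2 minus Abhd5 was -0.64 with an SE of at most 0.20, and the level of Pnpla2 per kilobase was 12.7 times that of Abhd5 in GFP cells and 8.13 times in dnMKL1 cells, or 7.75 and 4.96 times with the longest transcripts as lengths. G0s2, an inhibitor of the lipase, had a value of -0.56 in the authors' deposited table, near that of Pnpla2, but with an SE of 0.41 (adjusted p = 0.312). Hilpda, another inhibitor, had -0.020 (SE 0.22, adjusted p = 0.961) in the authors' deposited table. Under total-count scaling Abhd5 and Hilpda turned positive, at 0.19 and 0.27, and Abhd5 was then called.

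The genes of the later steps did not pass the test. Lipe, hormone-sensitive lipase, cleaves diglyceride and lies on chromosome 7 (GRCm38, 25379527 to 25398710, minus strand). Its implied means were 542 and 488 normalized counts, with a log2 fold change of -0.15 (SE 0.14, adjusted p = 0.451) in the authors' deposited table, so its 95% interval ran from a 25.8% decrease to an 8.91% increase. The antisense gene 4732471J01Rik spans all of Lipe and shares 918 exon bases with it. Its base mean was 4.01 against 515 for Lipe, both in the authors' deposited table.

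Mgll, monoglyceride lipase, releases the last fatty acid and lies on chromosome 6 (GRCm38, 88724412 to 88828360, plus strand). Its implied means were 1047 and 902 normalized counts, with a log2 fold change of -0.21 (SE 0.23, adjusted p = 0.525) in the authors' deposited table. The 95% interval, from -0.66 to 0.23, contains 0 and the whole interval of Dgat1. Pnpla2 minus Lipe was -0.59 with an SE of at most 0.26, and Pnpla2 minus Mgll was -0.53 with an SE of at most 0.35.

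Other lipases, phospholipases such as Pnpla8 among them, moved in both directions. Of 11 tested, Pnpla6, Abhd12 and Lipa were higher, Nceh1, Pnpla8 and Pnpla7 were lower and 5 were not called, with a median of 0.23. Among those that fell, the authors' deposited table gave -0.65 (SE 0.091, adjusted p = 3.2e-11) for Nceh1, a cholesteryl ester hydrolase, and -0.48 (SE 0.097, adjusted p = 1.1e-05) for Pnpla8, a phospholipase of mitochondria and peroxisomes. The rises in the authors' deposited table were 0.92 (SE 0.17, adjusted p = 1.7e-06) for Pnpla6, a lysophospholipase, and 0.29 (SE 0.086, adjusted p = 0.00393) for Abhd12. Total-count scaling turned the split of 3 higher and 3 lower into 7 and 1, and Pnpla8, at -0.19, was no longer called. Across all genes the calls were 16.6% higher and 17.4% lower, and that scaling gave 40.4% and 6.60%.

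**Figure D3:**
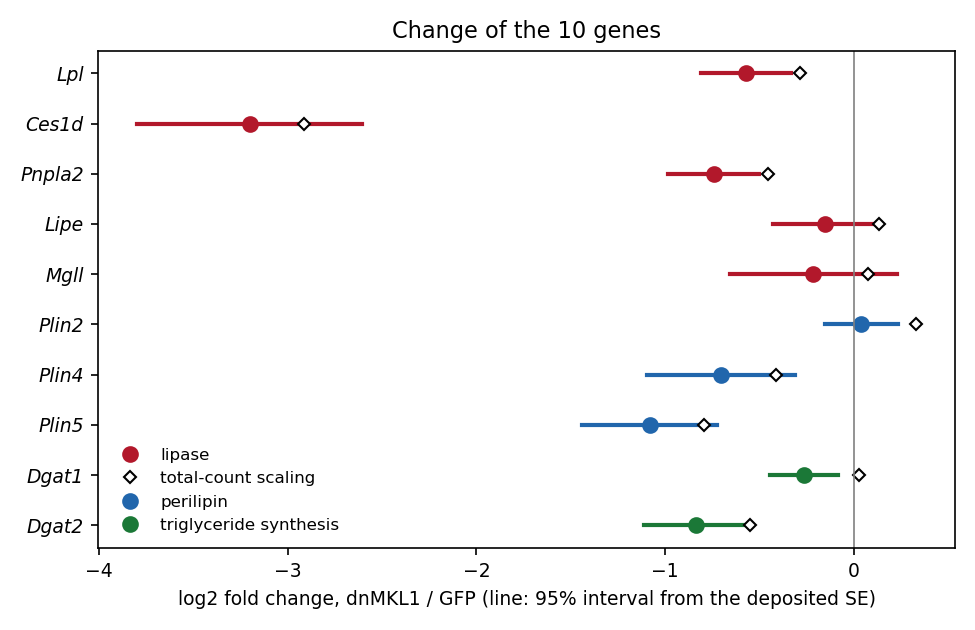
Log2 fold change (dnMKL1 over GFP) of each of the 10 genes with its 95% interval from the deposited SE, coloured by role; open diamonds are the values after scaling both groups to the same implied total. Ces1d has the lowest value, -3.20, the intervals of Lipe, Mgll and Plin2 contain 0, and the diamonds of Lipe, Mgll and Dgat1 lie just above 0.

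The perilipins of cardiac muscle moved apart. Plin5, the perilipin of oxidative tissues, which binds Pnpla2 and Abhd5 at the droplet and links droplets to mitochondria, was the most abundant. Its implied mean was 4769 normalized counts in GFP cells against 2253 in dnMKL1 cells. In the authors' deposited table it fell by 1.08 on the log2 scale (SE 0.18, adjusted p = 5.0e-08), a decrease of 52.7% with a 95% interval of 39.5% to 63.1%. After Ces1d this was the lowest value of the 10 genes, but its interval overlapped those of Dgat2, Pnpla2, Plin4 and Lpl.

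Plin4, a perilipin of small nascent droplets in muscle and fat, had implied means of 1931 and 1187 normalized counts. The authors' deposited table gave a log2 fold change of -0.70 (SE 0.20, adjusted p = 0.00225), a 95% interval from -1.09 to -0.31. Plin2, the perilipin found in most cell types, had implied means of 1461 and 1504 normalized counts. The authors' deposited table gave a log2 value of 0.042 (SE 0.099, adjusted p = 0.806), and the 95% interval of -0.15 to 0.24 leaves out the values of Plin4 and Plin5.

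The difference between the perilipins does not depend on how libraries are scaled. Plin5 minus Plin2 was -1.12 with an SE of at most 0.28, and Plin4 minus Plin2 was -0.74 with an SE of at most 0.30. Plin5 minus Plin4 was -0.38, no larger than its SE bound of 0.38. The perilipins were picked by function with earlier results of these data known, and these differences are given with no test.

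Plin3, which binds nascent droplets in many tissues, fell by 0.37 on the log2 scale (SE 0.13, adjusted p = 0.0194) in the authors' deposited table and kept -0.080 under total-count scaling, where it was not called. Plin1, the perilipin of adipocytes, had 1 read over the 10 libraries. Of the summed level per kilobase of Plin2, Plin3, Plin4 and Plin5, Plin5 made up 64.9% in GFP cells and 51.7% in dnMKL1 cells. Over the same sum, Plin2 went from 11.8% to 20.5%, Plin3 from 13.7% to 18.0% and Plin4 from 9.50% to 9.84%. With the longest transcripts as lengths, Plin5 went from 59.8% to 44.9%, Plin2 from 19.3% to 31.5% and Plin4 from 8.36% to 8.16%, so the small change of Plin4 turned its direction.

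**Figure D4:**
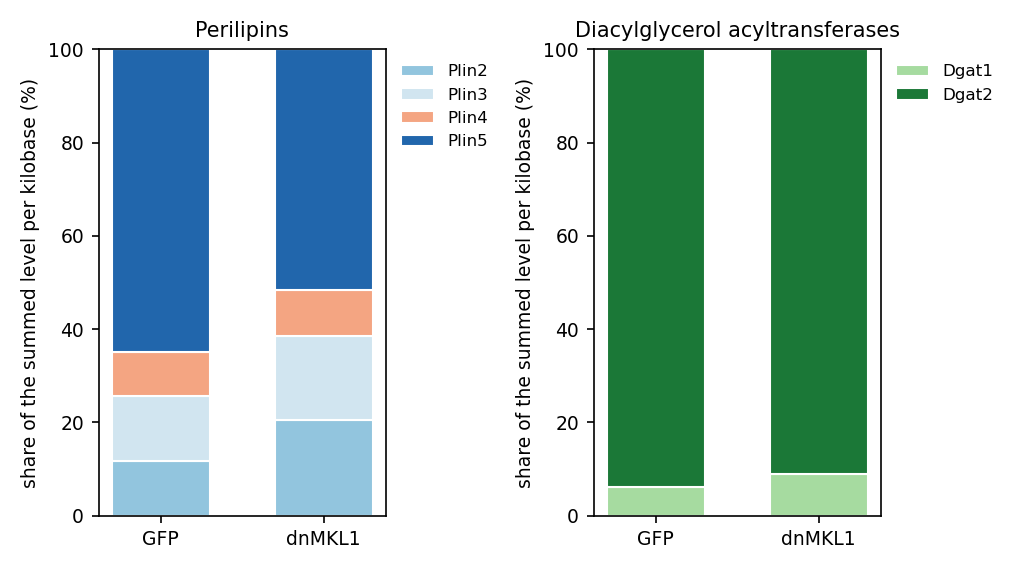
Share of each gene in the summed level per kilobase of its family (vertical axis, percent) in the GFP and dnMKL1 groups, for 4 perilipins on the left and the DGAT enzymes on the right. Plin5 takes the largest share in both groups and goes from 64.9% to 51.7%, and Dgat2 stays above 90% of its family.

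Plin4 and Plin5 are neighbours on chromosome 17, read from the same strand. Plin4 runs from 56100591 to 56109803 and Plin5 from 56111601 to 56117596 (GRCm38, minus strand), with 1797 bases between them, and Plin2 lies on chromosome 4 (86648386 to 86670060, minus strand). The 250 bases before the annotated start of these perilipins, from RefSeq on GRCm38.p6, are shown because the neighbours that fell and the perilipin that was not called can be set side by side. Capitals mark matches on either strand to AGGTCA (a nuclear receptor half-site), to CCAAT (the box named for it), to TATAA (part of a TATA box), to CACGTG (an E-box), to GGGCGG (a GC box) or to the CArG box of SRF. No match shown overlaps another. For Plin5 the first of its annotated starts is shown.
Plin5, chr17:56117549-56117798, minus strand: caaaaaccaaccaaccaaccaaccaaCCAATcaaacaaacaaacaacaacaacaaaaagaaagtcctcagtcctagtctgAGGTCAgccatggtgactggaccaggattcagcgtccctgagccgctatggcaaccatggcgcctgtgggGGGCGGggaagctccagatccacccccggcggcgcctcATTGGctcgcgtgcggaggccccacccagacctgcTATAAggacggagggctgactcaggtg
Plin4, chr17:56109783-56110032, minus strand: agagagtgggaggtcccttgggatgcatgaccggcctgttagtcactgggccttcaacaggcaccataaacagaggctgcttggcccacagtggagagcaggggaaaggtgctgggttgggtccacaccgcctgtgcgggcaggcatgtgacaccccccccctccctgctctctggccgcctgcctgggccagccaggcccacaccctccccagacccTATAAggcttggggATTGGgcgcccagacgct
Plin2, chr4:86670060-86670309, minus strand: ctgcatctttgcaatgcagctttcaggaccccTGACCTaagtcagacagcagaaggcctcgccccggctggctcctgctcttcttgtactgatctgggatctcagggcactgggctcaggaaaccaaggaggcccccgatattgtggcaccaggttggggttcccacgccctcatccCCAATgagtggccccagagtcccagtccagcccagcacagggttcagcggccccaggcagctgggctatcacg

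TATAA lies at base -27 before the Plin5 start shown and base -32 before the Plin4 start, on the gene's strand, and was found neither in the Plin2 window nor before the second annotated Plin5 start (chr17:56117299-56117548). AGGTCA lies at base -170 in Plin5 and, on the opposite strand, at base -218 in Plin2. CCAAT or its reverse was found in each of the 3 windows shown. Over 32851 RefSeq windows of the same length, 22.8% hold TATAA, 14.0% AGGTCA, 33.8% CCAAT, 32.7% GGGCGG, 6.02% CACGTG and 1.47% a CArG box. Entries were at hand for 6 of the 10 genes, with 9 windows in all, and 0 of the 9 held a CArG box. A match is a description of the letters and no evidence of binding.

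The Pnpla2 window (chr7:141454938-141455187, plus strand) holds GGGCGG on one strand at base -109 and on the other at base -26, with neither TATAA nor CCAAT. The second Plin5 window, like it, held GGGCGG and none of the other motifs. GGGCGG was also found in windows of Lipe and Mgll, which were not called, and so was CACGTG. The Pnpla2 window is shown as the promoter of a lipase that was lower, as Plin5 was.
Pnpla2, chr7:141454938-141455187, plus strand: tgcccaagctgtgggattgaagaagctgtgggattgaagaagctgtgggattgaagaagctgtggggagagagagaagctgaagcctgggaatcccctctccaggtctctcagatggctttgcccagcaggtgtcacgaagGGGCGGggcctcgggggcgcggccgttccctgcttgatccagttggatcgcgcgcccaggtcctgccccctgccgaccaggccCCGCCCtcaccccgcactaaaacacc

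Transcripts for the last step of triglyceride synthesis were also lower. Dgat2, which prefers newly made fatty acids, lies on chromosome 7 (GRCm38, 99153658 to 99182719, minus strand, 8 exons). Its implied mean was 8770 normalized counts in GFP cells against 4914 in dnMKL1 cells. In the authors' deposited table it fell by 0.84 on the log2 scale (SE 0.14, adjusted p = 3.7e-08), a decrease of 44.0% with a 95% interval of 32.3% to 53.6%.

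Dgat1, the structurally unrelated enzyme for the same reaction, lies on chromosome 15 (GRCm38, 76502015 to 76511953, minus strand, 17 exons). Its implied means were 574 and 479 normalized counts, with a log2 fold change of -0.26 (SE 0.092, adjusted p = 0.0162) in the authors' deposited table, which turned to 0.027 under total-count scaling. The end of the gene lies 101 bases from that of Hsf1 on the other strand. Dgat2 minus Dgat1 was -0.57 with an SE of at most 0.23. Per kilobase, Dgat2 stood 15.1 times above Dgat1 in GFP cells and 10.2 times in dnMKL1 cells, so Dgat2 was the main DGAT transcript in each.

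Transcripts for upstream steps of synthesis were mixed. Of 20 tested genes, Acsl1, Gpd1l, Gpam, Agpat3, Agpat2 and Agpat5 were lower, Lpin2, Acsl5 and Lpin3 were higher and 11 were not called, with a median log2 fold change of -0.11. The authors' deposited table gave -0.70 (SE 0.081, adjusted p = 6.0e-16) for Acsl1, the main acyl-CoA synthetase of heart, and -0.49 (SE 0.13, adjusted p = 8.8e-04) for Gpam, the mitochondrial enzyme of the first acylation. Gpd1l, a relative of the glycerol phosphate dehydrogenase gene Gpd1, fell by 0.46 (SE 0.081, adjusted p = 2.1e-07) in the authors' deposited table. Lpin2, a phosphatidate phosphatase, rose from an implied mean of 107 to 210 normalized counts, a log2 fold change of 0.97 (SE 0.16, adjusted p = 1.8e-08) in the authors' deposited table. Under total-count scaling the list had 6 higher and 1 lower, and Gpam and Gpd1l were no longer called. For comparison, 16.6% of all genes were called higher and 17.4% lower, or 40.4% and 6.60% under that scaling.

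Other droplet proteins, Plin3 among them, moved in both directions. Of 21 tested, 6 were higher (Spg20, Bscl2, Hsd17b11, Mospd2, Faf2 and Cidea), 5 were lower (Fitm1, Spast, Fitm2, Pcyt1a and Plin3) and 10 were not called, with a median of 0.041. Fitm1 and Fitm2, which partition triglyceride into droplets, fell, with log2 fold changes of -0.66 (SE 0.12, adjusted p = 1.0e-06) and -0.52 (SE 0.11, adjusted p = 3.1e-05) in the authors' deposited table. Spg20, which recruits ubiquitin ligases to droplets, rose by 0.49 (SE 0.11, adjusted p = 4.5e-05), and Spast, a microtubule-severing protein, had -0.51 (SE 0.095, adjusted p = 1.2e-06), both in the authors' deposited table. Rab18, a small GTPase of the droplet surface, had -0.13 (SE 0.058, adjusted p = 0.0704) in the authors' deposited table. Cidea, a droplet fusion protein of brown fat listed here among the adipocyte markers, had a base mean of 904 and a log2 fold change of 0.30 (SE 0.10, adjusted p = 0.0150) in the authors' deposited table. The rest of those markers had base means of at most 0.777, so Cidea is not read as a measure of adipocytes. Under total-count scaling 12 of these droplet proteins were higher and 2 lower, and Fitm2 was no longer called. The shares of all genes called were 16.6% higher and 17.4% lower, or 40.4% and 6.60% under that scaling.

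Regulators of these genes included some of the lowest values of the lists. Ppargc1b and Rxrg, a coactivator and a nuclear receptor of oxidative genes, fell by 1.52 (SE 0.17, adjusted p = 9.9e-17) and 1.55 (SE 0.21, adjusted p = 3.3e-12) on the log2 scale in the authors' deposited table. Ppara, the fatty acid receptor that drives many lipid genes of the heart, went from an implied mean of 890 to 518 normalized counts, -0.78 (SE 0.15, adjusted p = 1.8e-06) in the authors' deposited table. Mlxipl, a glucose-responsive factor, fell by 1.06 (SE 0.18, adjusted p = 4.5e-08), and Ppargc1a by 0.33 (SE 0.11, adjusted p = 0.00661), both in the authors' deposited table; under total-count scaling Ppargc1a kept -0.044 and was not called.

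Other regulators were higher. Hif1a, the hypoxia factor, rose from an implied mean of 3014 to 5452 normalized counts, with 0.86 (SE 0.13, adjusted p = 1.6e-09) in the authors' deposited table. Pparg, the receptor known from adipocytes, had implied means of 28.3 and 58.8 and a log2 fold change of 1.05 (SE 0.30, adjusted p = 0.0019) in the authors' deposited table. Prkaca, the kinase subunit that triggers lipolysis, had -0.16 (SE 0.096, adjusted p = 0.216) in the authors' deposited table. Of 22 tested regulators, 4 were higher, 7 lower and 11 not called, with a median of 0.0029, and total-count scaling gave 7 higher and 4 lower. Among all genes 16.6% were called higher and 17.4% lower, or 40.4% and 6.60% under that scaling.

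**Figure D5:**
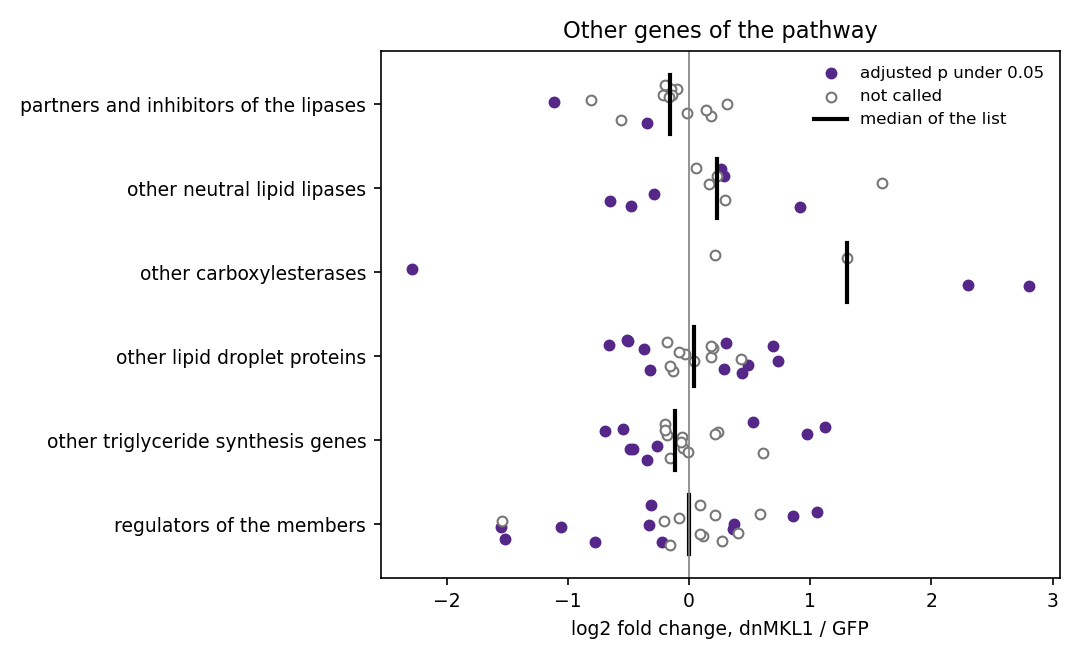
Log2 fold change (dnMKL1 over GFP) of each tested gene in the 6 lists of related genes; filled points have an adjusted p under 0.05, open points do not, the vertical place within a row is arbitrary, and black bars are list medians. Lists other than the carboxylesterases centre between -0.16 and 0.23, and each list holds genes called lower.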

How the data were processed

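RNA sequencing of 10 libraries (5 GFP, 5 dnMKL1) was analysed from 1 table, the authors' own comparison. Reads were aligned with STAR and counted with featureCounts by the authors, per the labels' design text; the submitters' processing notes name STAR 2.5.3a, Subread 1.5.2 and mm10. The annotation, filters and use of strand are not given in the sources used here. Per the file headers the columns are those of a DESeq2 results table: the deposited base mean is a signal in normalized counts, the deposited fold change and SE are log2 values, the deposited Wald statistic is a score, and the deposited p-value is two-sided and was adjusted by the Benjamini-Hochberg method over 14056 genes. The authors' adjusted p under 0.05 was the call.

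Computed here were implied group means (base mean taken as the average of both groups, which have equal size), 95% normal intervals from the SE, and size factors from genes with 1 read in 1 library. A library's total was taken as its size factor times its group's summed implied means. Intervals rest on the deposited SE, and reads carry no molecular identifiers. Reads of genes with at most 6 were recovered as the only combination of size factors giving the base mean. Exon lengths, positions and shared 50-base words came from GENCODE M21 on GRCm38, the build of mm10, and promoter windows from RefSeq. Base sequences were aligned with Biopython 1.88. The calculations were tested on simulated data.

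List genes were matched by symbol as spelled. Gpat3, Gpat4, Gk and Ldah were counted under their older symbols Agpat9, Agpat6, Gyk and 1110057K04Rik. Angptl8, Ces1h and the marker Adgre1 did not match and are not analysed here. Members and lists were chosen with earlier results of these data known. Named were the 10 genes, Mkl1, the 4 smallest p-values and 2 most abundant genes of each list, and fixed partners; genes named only to complete a count, to describe a neighbour or as markers were chosen after their values were seen. The libraries are called biological replicates, but the animals behind each are not given. The p-values set each change against an SE estimated from variation between these libraries, which need not equal that between animals. Alternatives were other thresholds, filters, adjustment over all p-values and total-count scaling. The values of 1 gene in the list of partners and inhibitors are not reported here.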

Additional observations from a re-analysis of the deposited data

How the results depend on the processing

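No paired analysis was possible because the table analysed holds 1 value per gene for the whole comparison. No library could be left out either, and whether 1 library decides a value is unknown. Of the 10 genes, 7 were called, or 6 without Ces1d, whose call follows from how it was picked. The count of 7 stayed within 1.5 times of 7 under each alternative. Ces1d was called in each, so it adds nothing to this stability. Total-count scaling gave 1 higher (Plin2) and 5 lower, Ces1d included.

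A threshold of 0.1 gave 5 called genes among the partners and inhibitors, in place of 2. A base mean of at least 100 left 1 of these and 0 carboxylesterases, since fewer genes could be tested. Asking for an absolute log2 change of 0.5 or more left 2735 of the 4792 genes called over the table, 1 partner or inhibitor, 2 of the other lipases, 5 droplet proteins, 5 synthesis genes and 6 regulators, since fewer genes can pass. Total-count scaling gave 4 partners and inhibitors, and over all genes 5685 higher and 927 lower in place of 2340 and 2452. It reversed 11 named genes by the shift itself: Abhd5 to 0.19, Angptl4 to 0.075, Cd36 to 0.12, Dgat1 to 0.027, Gpihbp1 to 0.14, Hilpda to 0.27, Lipe to 0.13, Lmf1 to 0.088, Mgll to 0.074, Prkaca to 0.13 and Rab18 to 0.16. Of these 11, Abhd5 and Rab18 were then called higher and Dgat1 was no longer called. Apart from them, 8 named genes, Vldlr, Pnpla8, Plin3 and Plin4 among them, were no longer called and 3 became called. Dgat1, Plin3 and Ces5a were not called at 0.01, and Ces5a was not called after adjustment over all p-values (0.0503). Depth limits Ces1e, Ces3b and Ces5a, which had base means of 10.4, 4.48 and 2.84 in the authors' deposited table. The length used per kilobase, an alternative chosen after seeing the data, moved the share of Plin5 among perilipins from 64.9% to 59.8% in GFP cells and from 51.7% to 44.9% in dnMKL1 cells, and that of Plin2 from 11.8% to 19.3% and from 20.5% to 31.5%.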

Other observations

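Genes beside the 10 were read from the same table, chosen by position after the values of the perilipins were seen. Lrg1, which encodes a secreted leucine-rich glycoprotein, lies next to Plin5 on the same strand of chromosome 17, 2081 bases away. In the authors' deposited table it had a base mean of 277 and a log2 fold change of -1.08 (SE 0.20, adjusted p = 1.4e-06), and under total-count scaling it had -0.79. On the other side of Plin4, Hdgfl2, a chromatin-binding factor gene of the opposite strand listed under its older symbol Hdgfrp2, had 0.067 (SE 0.095, adjusted p = 0.657) in the authors' deposited table. Hsf1, a heat shock factor gene that ends 101 bases from Dgat1, had a log2 fold change of -0.32 (SE 0.082, adjusted p = 5.6e-04) in the authors' deposited table, which became -0.031 under total-count scaling. Cracr2b beside Pnpla2, listed as Efcab4a, had 0.026 (SE 0.30, adjusted p = 0.963) in the authors' deposited table. Beside Lipe, the authors' deposited table gave 0.69 (SE 0.63, adjusted p = 0.446) for 4732471J01Rik and 1.33 (SE 1.76, no adjusted p) for Cxcl17, at base means of 4.01 and 0.455. Strand use in the counting is not given in the sources used here. These are values for single neighbours, and no test of position was made.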
